A study of Mus musculus with 4 samples.

Results

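Blood vessel and vessel-wall genes were followed in bulk RNA of 4 mammary gland tumours, numbered 1 to 4, from MMTV-R26Met mice. In this genotype the MMTV promoter, which acts mainly in mammary epithelium, turns on a conditional Met transgene placed in the Rosa26 locus. Whether it was also turned on in vessel cells was not tested. All 4 tumours share the genotype, and no treated or normal tissue was analysed here. The sources used here give neither their age nor whether each came from a separate mouse. P-values therefore measure only the spread between these 4 samples. A fixed list of 37 symbols of blood and lymphatic endothelial cells, sprouting tip cells and pericytes was looked up in the table of counts, and 37 of 37 were found among its 28440 genes. Of the 37 genes, 35 had enough counts to be tested and 2 lymphatic genes, Prox1 and Mmrn1, did not.

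Endothelial cells line vessels and hold together through VE-cadherin and claudin junctions. They grow toward VEGF through the receptors Kdr, Flt1 and Flt4, and mature under the angiopoietin receptor Tek. In a growing vessel a leading tip cell switches on Esm1, Apln and Angpt2, while pericytes wrap the vessel behind it and set its tone through potassium channels and guanylate cyclase. In tumours these vessels carry oxygen and leukocytes.

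The libraries held 35220504 to 42809015 counts, and levels are CPM (a gene's share of the library's counts, scaled by TMM factors and given on the usual CPM scale). No library was a copy of another, the chi-square between pairs being 132 to 387 per degree of freedom. The 37 genes together held 0.105, 0.0792, 0.083 and 0.0733% of the counts of tumours 1 to 4. In bulk tissue, fewer cells of a type and less RNA per cell cannot be told apart. Lists of other cell types gave the setting: epithelial genes summed to 2277 to 3494 CPM, fibroblast genes to 2421 to 3665 CPM and leukocyte genes to 233 to 330 CPM. Smooth muscle genes summed to 125 to 211 CPM, while platelet genes summed to 10.1 to 29.3 CPM with Gp1ba and Gp9 at or near 0.

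Vessel genes were found in every tumour, most of them within 2-fold across the tumours, and among the 35 tested genes the widest spread lay in the 3 tip cell genes and in Kcnj8, of the pericyte potassium channel. Of the 35 tested genes, 0 varied between the tumours more than genes of like expression did (edgeR, adjusted p under 0.05), against 3.63% of all 15808 genes tested. At an unadjusted p under 0.05 the number was 4 of 35, or 11.4%, against 8.74% of all genes tested. These 4 were Esm1, Kcnj8, Angpt2 and Apln, and DESeq2 marked 0 of the 35 as dispersion outliers. The ratio of the highest to the lowest tumour ran from 1.21 for Ptprb to 8.66 for Angpt2, with a median of 1.93, against a median of 1.73 over all genes tested. It stayed under 2 for 19 genes and under 3 for 30. A p that misses the threshold does not show that a gene was level across the tumours.

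**Figure D1:**
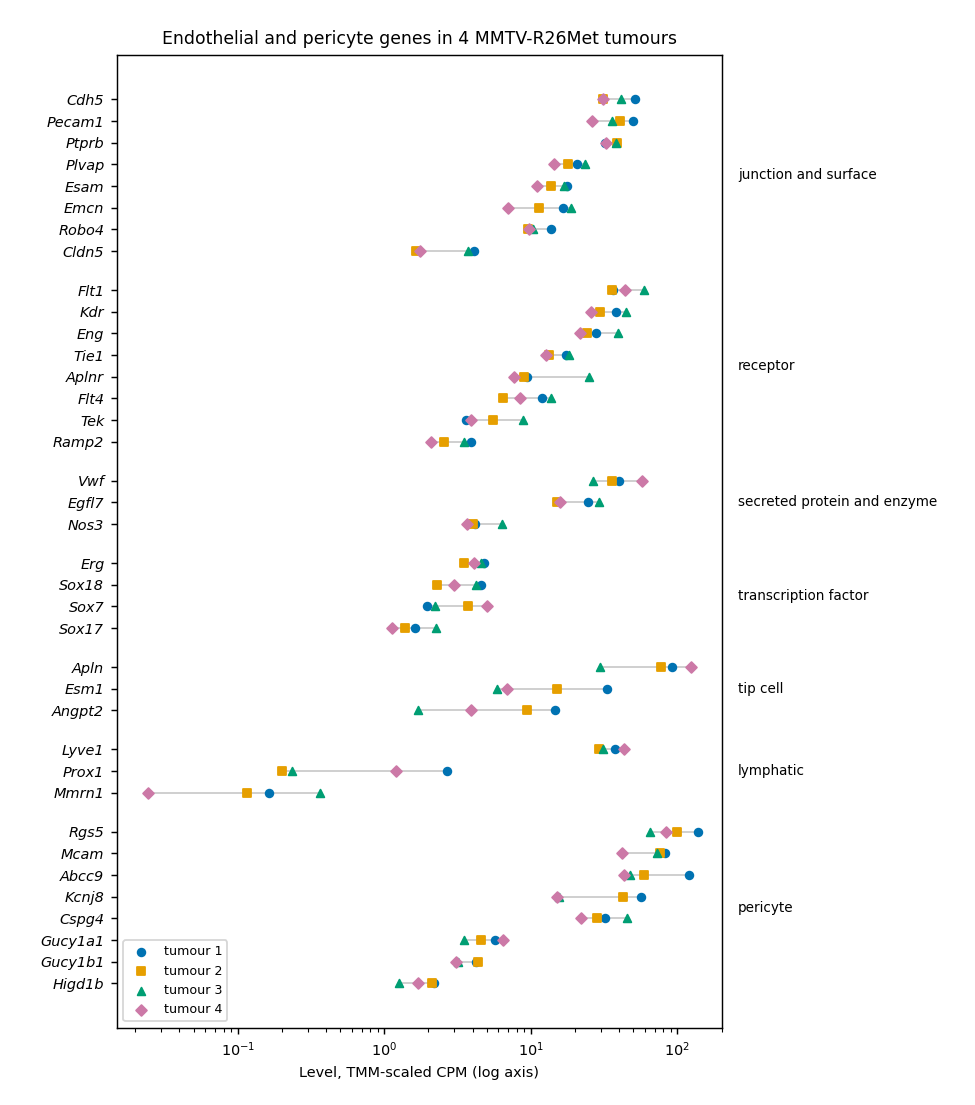
Level of each of the 37 genes in each tumour, as TMM-scaled CPM on a log axis, grouped by role, with 1 symbol per tumour and a grey line from the lowest to the highest. Most lines are short, and those of Angpt2, Esm1, Apln, Prox1 and Mmrn1 are the longest.

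**Figure D2:**
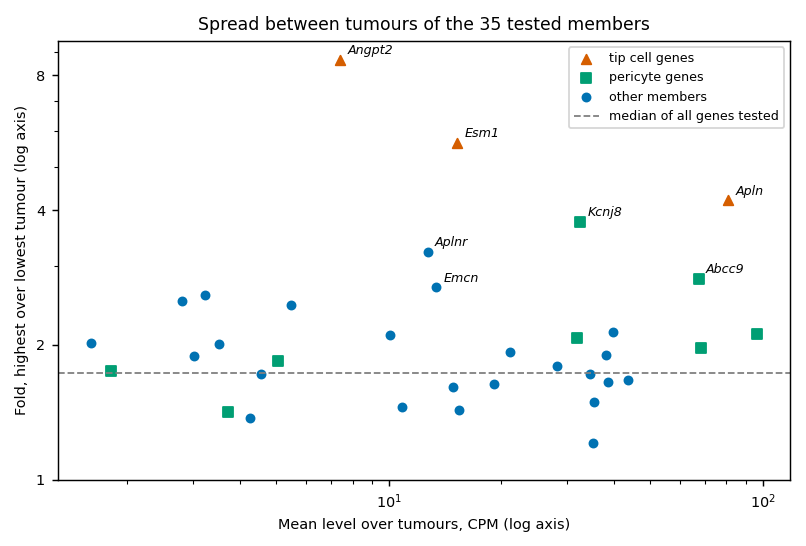
Ratio of the highest to the lowest tumour against mean level in CPM for the 35 tested genes, both on log axes, with the median ratio of all genes tested as a dashed line. The 3 tip cell genes and the pericyte gene Kcnj8 lie above the other members.

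Genes of endothelial junctions and surface were present in every tumour, highest as a group in tumour 1 and lowest in tumour 4. Cdh5, which encodes VE-cadherin of the adherens junction, had 51.3, 31.2, 41.1 and 31.0 CPM in tumours 1 to 4. Pecam1, an adhesion molecule of the endothelial border, had 49.6, 40.6, 35.8 and 26.1 CPM. Tumour 1 had the most of both genes and tumour 4 the least, less than 2-fold apart. Cldn5, a claudin of endothelial tight junctions, had 4.12, 1.64, 3.70 and 1.75 CPM, with tumours 1 and 3 above tumours 2 and 4. Emcn, a mucin-like protein of capillary and venous endothelium, had 16.5, 11.3, 18.8 and 6.99 CPM. Esam, an adhesion molecule of the same junctions, had 17.7, 13.8, 16.8 and 11 CPM. Each of these 3 genes was lower in tumours 2 and 4 than in tumours 1 and 3. Plvap, which forms the diaphragms of fenestrated capillaries, had 20.6, 18, 23.4 and 14.3 CPM, and Robo4, a guidance receptor that steadies vessels, had 13.8, 9.49, 10.4 and 9.67 CPM. Ptprb, the phosphatase that restrains Tek and VE-cadherin signalling, had 32.1, 38.7, 38.0 and 32.4 CPM and had the smallest ratio of highest to lowest tumour of the 35 tested genes. The group score, which averages each gene's log2 CPM after subtracting that gene's own mean, was 0.32, -0.14, 0.22 and -0.40 in tumours 1 to 4. None of the 8 genes passed the test (edgeR adjusted p = 1 for each).

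The receptors took another order of tumours, with 7 of 8 highest in tumour 3. Kdr, the main signalling receptor of VEGF, had 38.1, 29.6, 44.5 and 25.9 CPM, and Flt1, a decoy that binds VEGF with little signalling, had 36.2, 35.6, 59.3 and 43.8 CPM. Tumour 3 was highest for both, while tumour 4 was lowest for Kdr and tumour 2 for Flt1. Per kb of transcript, the Kdr to Flt1 ratio was 1.23, 0.969, 0.873 and 0.689 in tumours 1 to 4. Which of the 2 had the higher mean depended on the length used. With the union of all annotated exons as the length, Kdr averaged 3.82 and Flt1 3.24 CPM per kb. Flt4, the receptor of VEGF-C, had 11.8, 6.49, 13.7 and 8.43 CPM. Tek, the angiopoietin receptor, had 3.60, 5.54, 8.84 and 3.90 CPM, whereas its partner Tie1 was flatter, at 17.4, 13.2, 18.2 and 12.8 CPM. Eng, a coreceptor of TGF-beta and BMP ligands, had 27.7, 24.3, 39.0 and 21.8 CPM. Aplnr, the apelin receptor, had 9.36, 8.91, 24.9 and 7.70 CPM, so that tumour 3 stood alone. Ramp2, which makes the calcitonin-like receptor respond to adrenomedullin, was the exception, with 3.90, 2.57, 3.52 and 2.07 CPM. The receptor score was 0.01, -0.23, 0.54 and -0.32 in tumours 1 to 4, and 0 of 8 passed (edgeR adjusted p = 1 for each). Over all genes tested, 29.7% were highest in tumour 3.

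**Figure D3:**
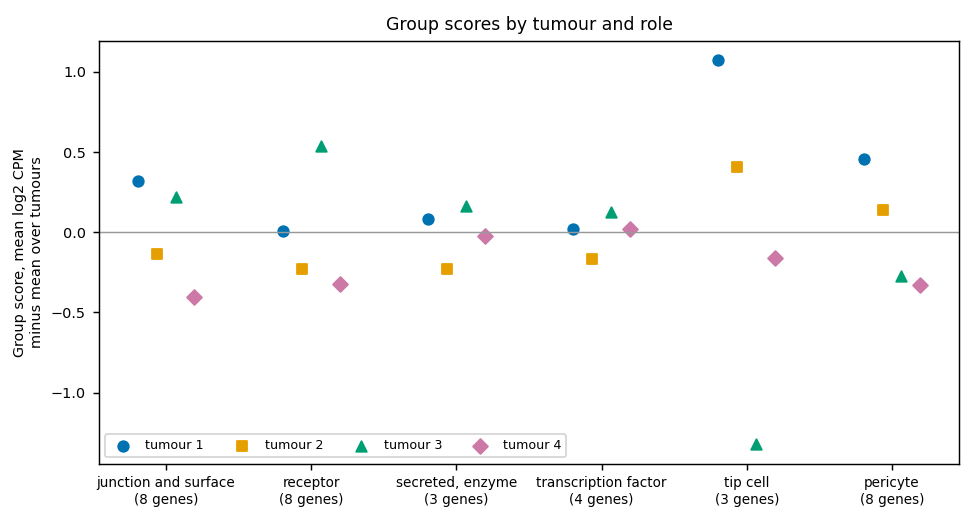
Group score, the mean log2 CPM of a role's tested genes minus that gene's own mean, for each tumour, with 1 symbol per tumour. Tip cell genes spread most, with 1.07 in tumour 1 and -1.32 in tumour 3, while receptor genes are highest in tumour 3.

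Secreted products and transcription factors did not follow 1 order of tumours. Vwf, the platelet-binding protein that endothelium stores, had 40.2, 35.6, 26.6 and 56.9 CPM and was highest in tumour 4, unlike the junction genes. Egfl7, a secreted endothelial matrix protein, had 24.5, 15.1, 29.0 and 15.7 CPM, and Nos3, the endothelial nitric oxide synthase, had 4.19, 4.01, 6.33 and 3.68 CPM. Among the transcription factors, Erg, an ETS factor that maintains endothelial identity, had 4.82, 3.52, 4.54 and 4.12 CPM. Sox18 and Sox17, SOX factors of developing vessels, ran from 2.28 to 4.59 CPM for Sox18 and from 1.12 to 2.27 CPM for Sox17. Sox7, of the same SOX subgroup, had 1.95, 3.72, 2.22 and 5.04 CPM, so that the 2 tumours with the least Cldn5 and Emcn had the most Sox7. The factors scored 0.02, -0.17, 0.13 and 0.02, and 0 of 4 passed (edgeR adjusted p = 1 for each).

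Of the tested genes, the tip cell genes had the largest ratios of highest to lowest tumour, and all 3 were lowest in tumour 3. Angpt2, which destabilises vessels by opposing Tek activation, had 14.7, 9.37, 1.69 and 3.90 CPM in tumours 1 to 4. Esm1, a proteoglycan secreted by VEGF-stimulated tip cells, had 33.0, 15.1, 5.84 and 6.92 CPM. These 2 genes ran in the same order, tumour 1 first and tumour 3 last. Apln, the apelin ligand, had 91.4, 77.6, 29.6 and 125 CPM, so that tumour 4 and not tumour 1 was highest. Per kb of transcript Apln averaged 25.7 ± 12.5 CPM, against 11.6 ± 2.98 for Pecam1 (SD, n = 4). Which cells made Apln was not tested. The adjusted p by edgeR was 0.37 for Angpt2, 0.266 for Esm1 and 0.436 for Apln, so 0 of 3 passed, and over all 9 alternatives of the test the lowest adjusted p of any member was 0.253 (Esm1). The tip cell score was 1.07, 0.41, -1.32 and -0.16. Over all genes tested, 27.7% were lowest in tumour 3. Markers of red blood cells were also lowest there, summing to 44.3, 43.8, 4.69 and 20.7 CPM in tumours 1 to 4, with Hbb-bt at 0 in tumour 4. Of these, 0 of 3 tested passed by edgeR, though all 3 had an unadjusted p under 0.05. Without tumour 4 Hbb-bs passed (edgeR adjusted p = 0.0389), and without the count filter Hbb-bt, which was too low to enter the test, passed (0.00489). Their part in the result was not tested.

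For apelin, ligand and receptor lay at opposite ends in tumours 3 and 4. Per kb of transcript, Apln stood to Aplnr at 11.5, 10.2, 1.40 and 19.0 in tumours 1 to 4, with Apln lowest and Aplnr highest in tumour 3, and the reverse in tumour 4. For the angiopoietins the antagonist Angpt2 stood to the agonist Angpt1 at 0.400, 1.07, 0.225 and 0.0870 per kb. Only in tumour 2 was Angpt2 the higher of the 2. These are ratios of levels, described without a test.

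**Figure D4:**
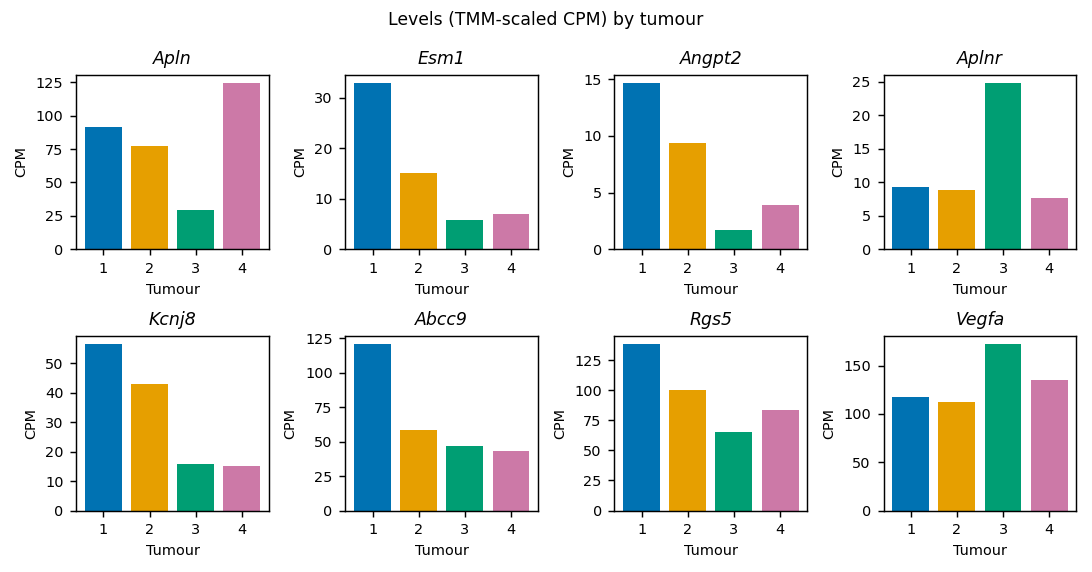
Level in TMM-scaled CPM by tumour for 3 tip cell genes, the apelin receptor Aplnr, 3 pericyte genes and the ligand Vegfa, each bar 1 tumour. Apln, Esm1 and Angpt2 are lowest in tumour 3, where Aplnr, at 24.9 CPM, and Vegfa are highest.

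Promoter sequence is shown for 2 tip cell genes that shared their lowest tumour and for Kcnj8, the most variable pericyte gene. RefSeq (GRCm38.p6) gives the 250 bases before the start, 5′ to 3′ on the gene's strand. Apln lies at chrX:48034854-48035103 on the minus strand, Esm1 at chr13:113209409-113209658 on the plus strand and Kcnj8 at chr6:142571615-142571864 on the minus strand. Capitals mark a match of any of 4 motifs on either strand: the ETS-type CAGGAAG and CCGGAAG, the hypoxia-type ACGTG and the SOX-type ACAATG, which do not overlap each other here.
Apln: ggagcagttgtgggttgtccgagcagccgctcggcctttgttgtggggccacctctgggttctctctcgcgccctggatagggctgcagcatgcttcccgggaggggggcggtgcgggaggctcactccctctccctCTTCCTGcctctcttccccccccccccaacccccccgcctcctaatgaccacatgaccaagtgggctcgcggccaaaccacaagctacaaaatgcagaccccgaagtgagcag
Esm1: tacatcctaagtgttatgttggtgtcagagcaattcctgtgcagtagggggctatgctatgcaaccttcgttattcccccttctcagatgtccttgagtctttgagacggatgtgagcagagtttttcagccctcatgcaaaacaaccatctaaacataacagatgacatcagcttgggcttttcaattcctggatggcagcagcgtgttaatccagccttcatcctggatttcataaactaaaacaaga
Kcnj8: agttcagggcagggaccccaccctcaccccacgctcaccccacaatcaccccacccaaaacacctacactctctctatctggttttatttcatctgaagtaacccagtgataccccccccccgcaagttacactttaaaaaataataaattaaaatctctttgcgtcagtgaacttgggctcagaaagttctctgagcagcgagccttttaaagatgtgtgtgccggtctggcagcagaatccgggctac
In these windows, Apln held 1 CAGGAAG match (as CTTCCTG on the printed strand), and Esm1 and Kcnj8 held 0 of these 4 motifs. Only these exact letters were searched, so other forms of ETS-type, hypoxia-type or SOX-type motifs would be missed. Promoters were matched for 22 of the 37 genes. CAGGAAG was found in 4 of these 22, or 18.2% (Apln, Egfl7, Emcn and Robo4), against 10.5% of 27025 promoters of the same length. CCGGAAG was found in 0 of the 22, against 7.1%, and ACGTG in 0 of the 22, against 16.6%. ACAATG was found in 2 of the 22, Gucy1b1 and Mmrn1, or 9.1%, against 11% of all. A match is a description of letters, not of binding.

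Pericyte genes were highest in tumour 1 as a group and lowest in tumours 3 and 4, with scores of 0.46, 0.14, -0.27 and -0.33. Rgs5, a signalling regulator that marks pericytes, had 138, 99.9, 65.2 and 83.3 CPM. Kcnj8, the pore of the pericyte ATP-sensitive potassium channel, had 56.5, 42.8, 15.6 and 15 CPM, and Abcc9, its regulatory subunit, had 121, 58.7, 47.2 and 43 CPM. For both channel genes tumour 1 was highest and tumour 4 lowest, with tumours 3 and 4 nearly level. Higd1b, which encodes a mitochondrial protein and marks pericytes, had 2.19, 2.11, 1.25 and 1.70 CPM. Gucy1a1 and Gucy1b1, the 2 subunits of the nitric oxide receptor, had 5.74, 4.59, 3.49 and 6.43 CPM and 4.26, 4.36, 3.21 and 3.07 CPM, and only Gucy1a1 was highest in tumour 4. Mcam, an adhesion molecule of pericytes and endothelium, had 82.1, 75.8, 73.1 and 41.8 CPM. Cspg4, the proteoglycan NG2 of pericytes, had 31.8, 28.2, 45.4 and 21.9 CPM and was highest in tumour 3 instead. Of the 8, 0 passed the test (edgeR adjusted p = 0.276 for Kcnj8, 0.866 for Abcc9 and 1 for the others).

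Mcam and Cspg4 are also made by cells of neural crest type, and the neural crest factor Sox10 stood at 344 ± 59.2 CPM (SD, n = 4). The part of such cells in these levels was not tested. Pdgfrb, the receptor that recruits pericytes, had 91.0, 80.8, 89.3 and 76.5 CPM. The Rgs5 to Pdgfrb ratio per kb was 2.00, 1.63, 0.963 and 1.44 in tumours 1 to 4.

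Some of the genes are neighbours in the genome. Kcnj8 (chromosome 6, 142564837 to 142571614) and Abcc9 (142587862 to 142702766) lie 16.2 kb apart, and Gucy1b1 (chromosome 3, 82032004 to 82074711) and Gucy1a1 (82092427 to 82145946) lie 17.7 kb apart, on GRCm38.p6. Abcc9 stood to Kcnj8 at 0.877, 0.562, 1.24 and 1.18 per kb of transcript in tumours 1 to 4. That ratio spread 2.20-fold, while Abcc9 alone spread 2.81-fold and Kcnj8 alone 3.77-fold. The cyclase pair went the other way. The Gucy1a1 to Gucy1b1 ratio spread 1.99-fold, while Gucy1a1 alone spread 1.84-fold and Gucy1b1 alone 1.42-fold. Robo4 (chromosome 9, 37401902 to 37414023) and Esam (37528089 to 37538319) lie 114.1 kb apart.

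Lymphatic genes were scarce apart from Lyve1. Lyve1, a hyaluronan receptor of lymphatic endothelium that tissue macrophages also make, had 37.4, 29.2, 31.1 and 43.5 CPM (edgeR adjusted p = 1). Prox1, the transcription factor that sets lymphatic identity, had 114, 7, 9 and 49 counts in tumours 1 to 4. It was too low to enter the test, and without the count filter edgeR gave an adjusted p of 0.539. Mmrn1, a secreted protein of lymphatic endothelium, had 7, 4, 14 and 1 counts. Prox1 and Mmrn1 were thus near 0 in tumours 2 and 3, where Lyve1 had 29.2 and 31.1 CPM. Of the leukocyte list, 0 of 4 tested genes passed by edgeR, 0 also at an unadjusted p under 0.05, with Ptprc at 67.2 to 93.3 CPM, and the part of such cells in the level of Lyve1 was not tested.

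Per kb of transcript (the principal transcript of GENCODE M21), the order of levels was led by Apln at 25.7 ± 12.5 CPM per kb, Rgs5 at 23.6 ± 7.59 and Mcam at 22.8 ± 6.02 (SD, n = 4). These 3 do not differ beyond their spread. Egfl7 followed at 15.1 ± 4.90, Kcnj8 at 12.8 ± 8.08, Lyve1 at 12.2 ± 2.25, Pecam1 at 11.6 ± 2.98 and Abcc9 at 10.9 ± 5.83 CPM per kb. Emcn, Cdh5 and Plvap lay between 9.60 and 9.87, Eng, Esam and Esm1 between 7.26 and 8.25, and Flt1 and Kdr at 6.34 ± 1.60 and 5.83 ± 1.42 CPM per kb (SD, n = 4). At the low end stood Sox7 (0.980), Sox17 (0.511), Prox1 (0.136) and Mmrn1 (0.0374 CPM per kb). With the union of all annotated exons as the length, Apln, Rgs5 and Mcam kept ranks 1 to 3, while Egfl7 moved to rank 12 and Emcn to rank 21.

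To describe how far each gene lay from the vessel genes, its centred log2 CPM was set against the mean of 7 core endothelial genes (Pecam1, Cdh5, Tie1, Esam, Robo4, Emcn and Cldn5). The core itself scored 0.39, -0.20, 0.23 and -0.42 in tumours 1 to 4. Of the 28 tested genes outside the core, 13 stayed within 0.5 of it in every tumour. A gene level across the tumours would do so too, since the core's own scores run only from -0.42 to 0.39. The count therefore cannot show that a gene followed the core. Of the 35 tested genes, core genes included, 3 had the core's order of tumours. Ramp2 was closest to the core, within 0.06, and Kdr, Plvap and Egfl7 were within 0.29. By contrast 5 genes were over 1 away in some tumour: Angpt2 (-1.90 in tumour 3 and 1.01 in tumour 1), Apln (-1.50 in tumour 3 and 1.22 in tumour 4), Esm1 (-1.25 in tumour 3 and 1.07 in tumour 1), Sox7 (1.16 in tumour 4 and -1.003 in tumour 1) and Kcnj8 (-1.04 in tumour 3). Vwf lay 0.99 above the core in tumour 4, and Aplnr 0.91 above it in tumour 3. All 35 genes share the libraries of these 4 tumours, so this is a description.

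**Figure D5:**
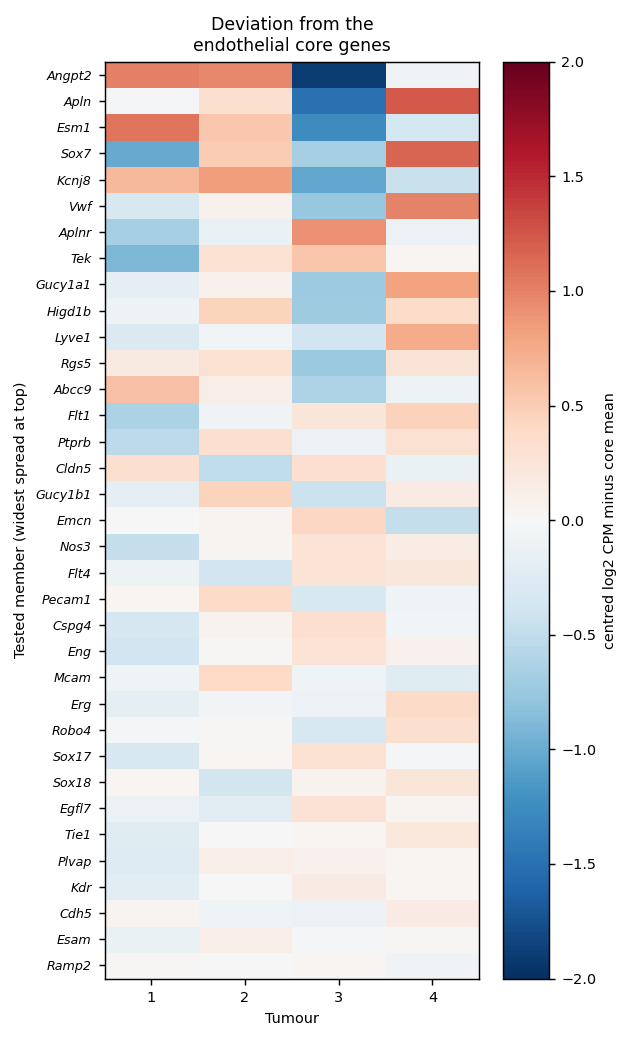
Centred log2 CPM of each tested gene minus the mean of the core endothelial genes, by tumour, on a colour scale from -2 to 2, with the widest spread at the top. For a core gene the mean leaves out the gene itself. Angpt2, Apln and Esm1 are low in tumour 3, and Ramp2 at the bottom is within 0.06 of the core.

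Other genes of the same pathways were counted on lists chosen with results of these data known. Of 25 tested other endothelial genes 1 passed, 4% against the 3.63% of all genes. It was Hey1, a Notch target, at 56.6, 8.13, 18.2 and 10.6 CPM (edgeR adjusted p = 0.0375), a call lost without tumour 1 (edgeR adjusted p = 1) or tumour 2 (0.228), without the count filter (0.0548), with the stricter filter of 5 CPM (0.0509) and by Holm adjustment (1). The most abundant of that list, the ephrin receptor Ephb4, had 113 to 198 CPM and did not pass. Of 10 tested vascular ligands 1 passed, 10% of them: Angpt1, the agonist of Tek, at 43.9, 10.5, 9.02 and 53.6 CPM (edgeR adjusted p = 0.0226), and it was lost whichever tumour was left out (edgeR adjusted p = 0.0615 to 0.182) and by Holm adjustment (1). Vegfa, the most abundant ligand, had 118, 113, 172 and 135 CPM (edgeR adjusted p = 1). Pgf, a ligand of Flt1, had 35.3, 22.5, 112 and 29.5 CPM, and Vegfc, the ligand of Flt4, had 2.87, 1.12, 10.9 and 4.33 CPM (edgeR adjusted p = 0.0558 and 0.37). Like Flt1 and Flt4, these 2 ligands were highest in tumour 3. By edgeR, 5 of the 10 tested ligands (50%) had an unadjusted p under 0.05, against 8.74% of all genes tested. Among the tested other endothelial genes the number was 6 of 25 (24%).

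Of 11 tested other pericyte genes 3 passed, or 27.3% against the 3.63% of all genes, and each stood apart in tumour 3. Des, an intermediate filament of muscle and pericytes, had 124 CPM in tumour 3, whereas tumours 1, 2 and 4 had 4.49 to 6.81 CPM (edgeR adjusted p = 3.77e-12), and Tbx2, a T-box factor, had 28 CPM against 1.19 to 4.61 CPM (edgeR adjusted p = 0.00144). Anpep, an aminopeptidase of pericytes and epithelia, went the other way, at 17.2 CPM in tumour 3 and 148 to 168 CPM elsewhere (edgeR adjusted p = 0.00339). Without tumour 3 these 3 calls were lost (edgeR adjusted p = 1 for each). By Holm adjustment Des passed (edgeR adjusted p = 1.39e-10), but Tbx2 (0.373) and Anpep (1) did not, and DESeq2 marked Des alone of the 3 as a dispersion outlier. Directions in tumour 3 were mixed within both lists: Des and Tbx2 were highest and Anpep lowest there, while of the 8 pericyte members Cspg4 was highest and Rgs5 lowest there. Notch3, a receptor of mural cells, had 27.1 to 35.1 CPM, and Fabp4, of adipocytes and capillary endothelium, had 90.9 CPM in tumour 3 and elsewhere 7.91 to 25.8 CPM (edgeR adjusted p = 0.000671, but 1 without tumour 3 and 0.153 by Holm adjustment).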

How the data were processed

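Poly-A RNA of 4 mammary gland tumours was sequenced as paired reads, per the labels. The authors deposited whole-number counts per Entrez gene, raw and not normalized, as shown by library totals that differ. The builds GRCm38 and mm10 are named per the submitters' processing notes. The sources used here name no aligner, counting program or strand setting, so reads of overlapping or antisense genes may be mixed. Columns of per-sample values not used numbered 0, and each column's number gave its tumour. Symbols came from RefSeq (GRCm38.p6) for 24480 of 28440 rows, and the other rows stayed in library sizes and tests.

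Genes were kept by filterByExpr (count 10, total 15) and scaled by TMM in edgeR 4.0.16 (R 4.3.3). As there is 1 group and no contrast, each gene was fitted with an intercept alone (negative binomial, trended dispersion), and its deviance was referred to chi-square, adjusted by Benjamini-Hochberg across 15808 genes (threshold 0.05). A gene that passes varies more than genes at its level do. The common coefficient of biological variation was 0.411. Log2 CPM used a prior count of 2. A count of 0 allows up to 3 counts, or 0.0706 to 0.0865 CPM by tumour, covering counting error only. The test was tested on simulated data with 1 library raised per changed gene. It called 31.2% of genes raised 4-fold, 72% of those raised 8-fold and 96% of those raised 16-fold. With no gene changed it called 0. Most changes of 4-fold were thus missed.

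Members and lists were chosen with earlier results of these data known. Every member is named. Members of other lists are named if they passed or were the most abundant, except some that are not reported here, and Pgf, Vegfc, Pdgfrb, Notch3, Sox10, Ptprc, Nrp1 and the red blood cell genes were chosen after their values were seen. So were the ratios between genes, the promoters and motifs shown, and the length behind levels per kb. The principal transcript replaced the union of exons, which is longer for genes with long minor transcripts and so lowers their level per kb. Promoter windows that overlap an annotated exon were not printed. Alternatives were scaling by RLE or by library size alone, a looser filter (none) or stricter one (mean of 5 CPM), Holm adjustment, the dispersion outliers of DESeq2 1.42.0, prior counts of 0.5 and 5, medians and leaving out each tumour.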

Additional observations from a re-analysis of the deposited data

Results flagged for a closer look

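In 5 of 57 genes examined, 1 tumour lay far from the other 3 on the log2 CPM scale, its gap to the nearest tumour taking up most of the whole range. Chance gives about 1 in 20 such cases for genes picked without regard to their values. The 57 include genes that passed the test and genes chosen after their values were seen. The 5 are therefore not compared with that rate. Among the vessel genes this was Aplnr, high in tumour 3 (gap share 0.833). Outside them, Des (0.8755) and Nrp1 (0.8292), a VEGF coreceptor at 137 CPM in tumour 3 and 50.4 to 59.8 CPM elsewhere, were high in tumour 3. Anpep (0.944) and the haemoglobin gene Hba-a1 (0.857), at 2.01 CPM in tumour 3 and 12.1 to 16.3 CPM elsewhere, were low there. In all 5 the tumour apart was tumour 3.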

How the results depend on the processing

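No member passed under any alternative run (RLE or library size scaling, either filter, Holm adjustment, DESeq2, or leaving out a tumour). The number of all genes that pass, 574, became 895 without a count filter, 198 by Holm adjustment, 91 by DESeq2's rule and 367 to 417 when 1 tumour was left out (367 without tumour 4); the cause was not tested. Of 324 group scores recomputed, 318 moved by less than the SD over tumours. With all 3 lymphatic genes in place of Lyve1 alone the lymphatic score was 0.76, -0.62 and -0.046 in tumours 1, 2 and 4, since Prox1 and Mmrn1 then enter. With medians over members the secreted and enzyme score was 0.51 and -0.27 in tumours 3 and 4, against 0.16 and -0.02 with means. The transcription factor score in tumour 4 was -0.10 with medians, against 0.02 with means. The tip cell score of tumour 3 ran from -1.38 to -0.96 over the alternatives. Pgf passed with library size alone (edgeR adjusted p = 0.0366) and without tumour 4 (0.0383). Low counts left Prox1 and Mmrn1 untested. No paired analysis was possible because the tumours form 1 group.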
